A study of Mus musculus with 10 samples.

Results

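The ephrin, Slit and netrin guidance genes were taken as the protein-coding Eph receptors, ephrins, Slits, Robos, netrins, netrin-Gs and Unc5 receptors, with Dcc and Neo1. The choice went by gene symbol and used no measured value. It gave 40 of the 53801 genes in the table, and 33 of them had enough reads to be tested. Bulk RNA sequencing had been done on wild-type mouse dorsal brain that received StarTrack, a set of integrating reporter plasmids, by electroporation in utero at embryonic day 12. At embryonic day 14 the cells were dissociated and sorted as NG2+ or as GFAP+, with 5 libraries from each sort, so both groups shared genotype, tissue, electroporation, age and the labelled batch 1. Cspg4 encodes NG2, a membrane proteoglycan, and Gfap encodes a filament protein found in astroglia. Neural stem cells is the labelled cell type of both groups, and the labels do not say whether the sort read an antibody or a reporter. They tie no library to its own animal or litter, so the p-values given here measure the spread between libraries, which may be technical.

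Eph receptors are receptor tyrosine kinases that bind ephrins on neighbouring cells. Class A ephrins are held in the membrane by a lipid anchor and class B ephrins span it, so that a signal can pass into both cells. Slits are secreted proteins that mostly repel growth cones and migrating cells through Robo receptors, and netrins attract through Dcc or repel through Unc5 receptors. In the developing cortex these systems are known for steering axons, holding progenitors in their layer and placing migrating neurons.

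The libraries had totals of 12945436 to 17569730 counts. Cspg4 had 79 to 118 reads in the NG2 and 11 to 22 in the GFAP libraries, while Gfap had 0 to 7 reads in all 10. Of the 10, 3 libraries stood apart in detected genes or in marker sums. NG2 replicate 5 had reads for 18903 genes, against 22988 to 24444 in the other 9 libraries. GFAP replicate 2 had the highest summed level of 20 radial glia markers, at 7470 CPM (counts scaled to a common library total), against 5371 to 5597 CPM in the rest of its group and 3364 to 5442 CPM in the NG2 group. It also had the lowest sum of 17 neuron markers, at 5048 CPM, against 6273 to 6670 CPM in the other GFAP and 6422 to 8759 CPM in the NG2 libraries. NG2 replicate 2 lay at the other end of the radial glia sum, with 3364 CPM against 4549 to 5442 CPM in the other NG2 libraries. Neuron markers were thus read in every library, beside the label of stem cells. Fewer cells of a type and less RNA per cell cannot be told apart in such bulk samples.

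No guidance gene differed between NG2 and GFAP libraries past the threshold. By edgeR's quasi-likelihood test, with p-values adjusted by Benjamini-Hochberg over 16187 genes and a threshold of 0.05, 0 of 33 tested members passed, where 0.148% of all tested genes did. The adjusted p of the members ranged from 0.184 to 0.984. Without adjustment, 3 members had an edgeR p under 0.05, where 12.8% of all tested genes had one. These were the ephrins Efna3 and Efnb3, with higher estimates in NG2 (6.45% of all genes), and the receptor Epha4, with a lower one (6.33% of all genes). In 0 members did the 2 groups of libraries stand without overlap, against 3.28% of all tested genes. DESeq2, run as an alternative, called 1 member, Efna3, where it called 2.99% of genes. The authors' deposited table likewise lists Efna3 alone among the 40 members with an adjusted p under 0.05, where it lists 1.16% of its genes.

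Log2 fold changes are given as NG2 minus GFAP throughout. Of the 33 members 12 were positive and 21 negative, so that 36.4% were positive, against 48.5% of all tested genes. The median was -0.09 for the members and -0.01 for all tested genes. Between libraries of the same group, the median log2 deviation of the members had an SD of 0.147. For 25 members the 95% interval of the fold change stayed within a 2-fold difference in either direction. The other 8 were Efna1, Efna5, Slit3, Robo3, Ntn1, Ntng1, Unc5b and Unc5c, and all had a mean of at most 2.17 FPKM, and a 2-fold difference in these lay within the interval. For Efna1 the interval was wide beside a single low library, NG2 replicate 5.

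**Figure D1:**
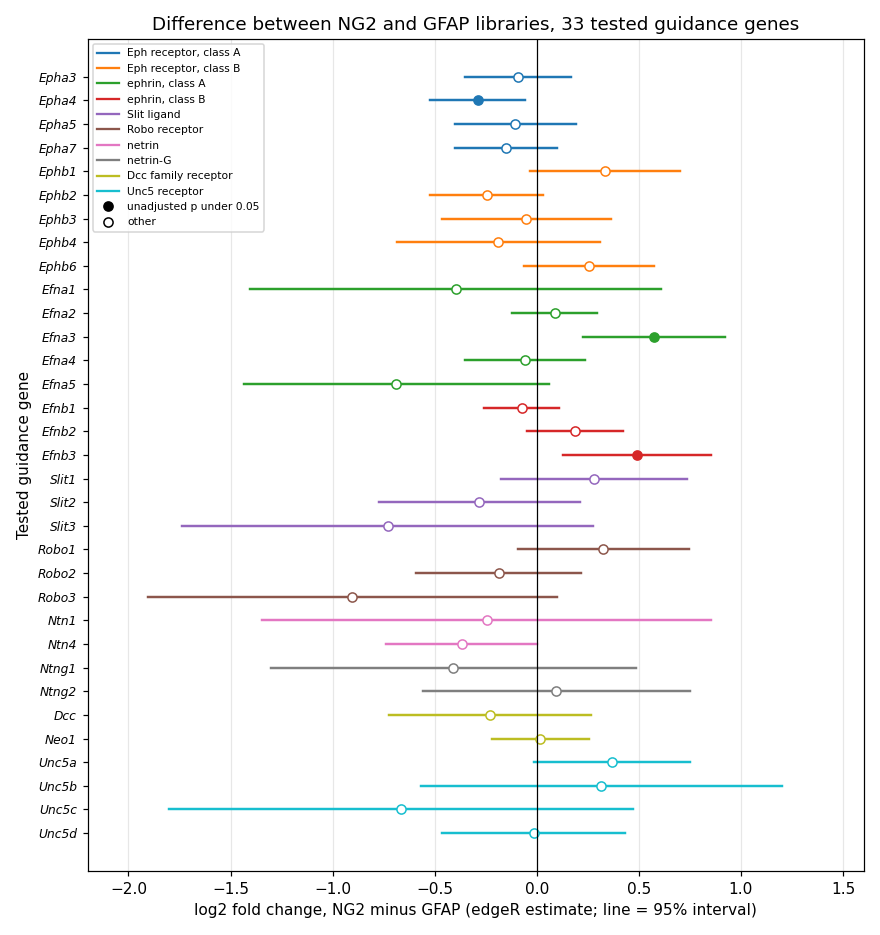
Log2 fold change (NG2 minus GFAP, x axis) of the 33 tested guidance genes (y axis, coloured by role), with points for edgeR estimates and lines for 95% intervals. Filled points mark the 3 genes with an unadjusted p under 0.05, Epha4, Efna3 and Efnb3, and the intervals of all the others include 0.

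Levels of different genes were compared per length, with the deposited FPKM values (fragments scaled by gene length and library total). On this scale 11 members had a mean of at least 10 FPKM over the 10 libraries, 14 lay between 1 and 10, and 15 lay under 1. Efnb1 was at the top with 83.5 FPKM, followed by Epha3 with 68.9, Efna2 with 42.3, Epha4 with 30.4, Efnb2 with 27.6, Epha5 with 25.9 and Robo2 with 21.4 FPKM. Efnb1 stood above 96.2% of protein-coding genes with a read, and Epha3 above 95.3%. In this order the values of each gene overlapped those of the next across libraries, except between Epha3, whose lowest library had 52.3 FPKM, and Efna2, whose highest had 48.1 FPKM.

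Ligands and receptors sat at unequal levels. The 3 Slits summed to 5.62 ± 2.04 FPKM in NG2 and 5.08 ± 0.847 in GFAP libraries (SD, n = 5 each), while the 4 Robo receptors summed to 26.3 ± 3.13 and 28.3 ± 7.44 FPKM. The 3 netrins summed to 6.99 ± 1.09 FPKM in NG2 and 8.92 ± 2.18 FPKM in GFAP libraries. Ntn4 made up 96.1% and 95.9% of that sum, while Ntn1, the classic ligand of Dcc, stood at 0.288 FPKM over all libraries. Among netrin receptors, Dcc and Neo1 together held 29.1 ± 5.36 and 31.0 ± 6.80 FPKM. The 4 Unc5 receptors held 15.8 ± 1.13 and 14.1 ± 3.38 FPKM. Within Eph signalling both sides were abundant. The 9 class A receptors reached 127.5 ± 11.4 FPKM in NG2 and 138.9 ± 20.7 in GFAP, and the 3 class B ephrins 121.5 ± 9.56 and 118.2 ± 5.48 FPKM. The 5 class A ephrins stood at 72.9 ± 5.83 and 68.4 ± 5.65 FPKM, and the 5 class B receptors at 34.8 ± 6.26 and 31.7 ± 2.18 FPKM.

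**Figure D2:**
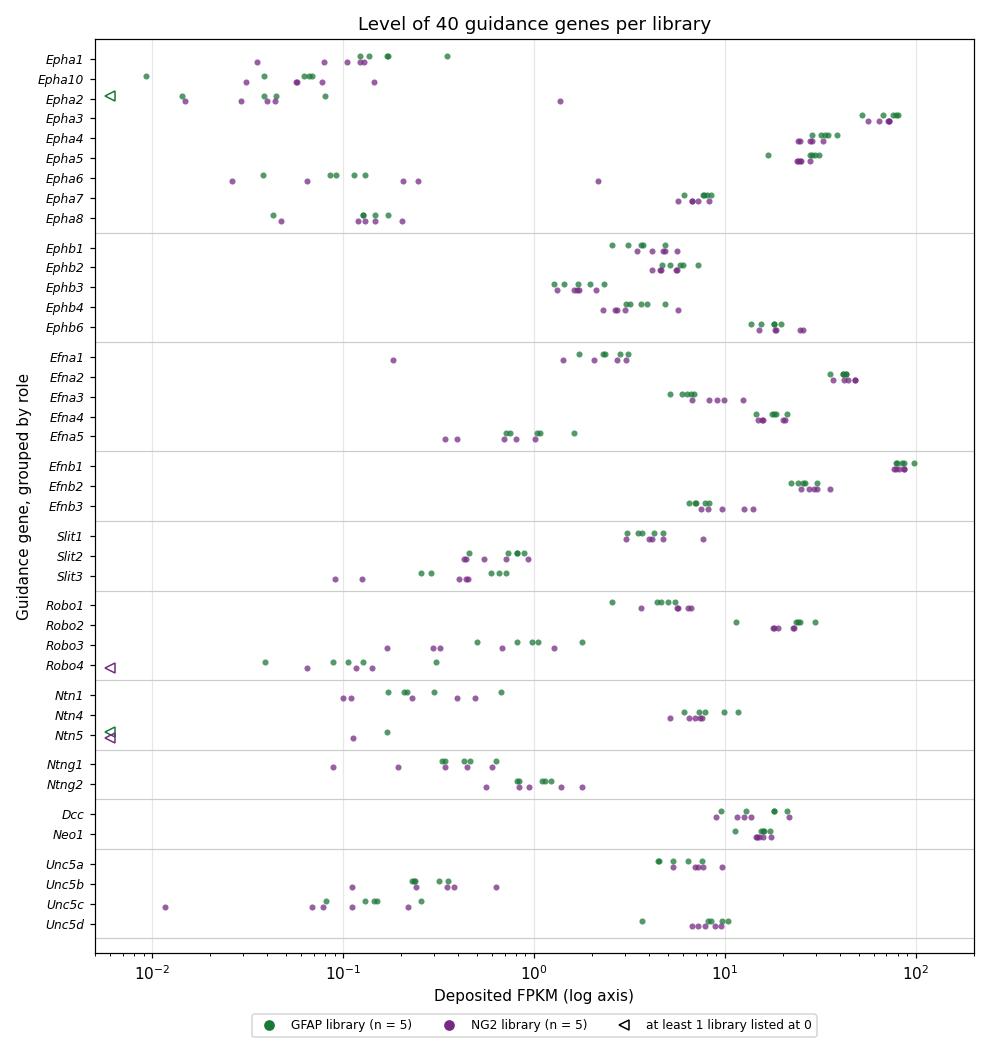
Deposited FPKM (x axis, log scale) of the 40 guidance genes (y axis, grouped by role) in each GFAP and NG2 library, with open triangles for genes listed at 0 in at least 1 library. Levels run from Efnb1 at a mean of 83.5 FPKM to Ntn5 at 0.0282 FPKM, and points of both groups lie over each other for most genes.

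Among the class A Eph receptors, Epha3, Epha4, Epha5 and Epha7 carried almost all of the signal, and Epha3 alone made up 52.5% ± 2.11 of the class sum in NG2 and 50.9% ± 1.76 in GFAP libraries (SD, n = 5). Epha4, a receptor that binds ephrins of both classes, had the lowest p of the receptors. It lies on chromosome 1 at 77367185 to 77515088 (minus strand, GRCm38). Its CPM were 284, 232, 258, 315 and 273 in GFAP replicates 1 to 5 and 231, 194, 199, 227 and 264 in NG2 replicates 1 to 5. Of the 5 NG2 libraries 4 lay below every GFAP library, and replicate 5 lay among them. The means were 223 ± 28.2 CPM over the NG2 and 272 ± 30.9 CPM over the GFAP libraries (SD, n = 5), a log2 fold change of -0.29 (SE 0.11, 95% interval -0.52 to -0.06, edgeR adjusted p = 0.298). This did not pass the threshold. NG2 replicate 2 was the lowest of the 10 libraries, and without it the value was -0.24 (edgeR adjusted p = 0.489).

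Epha3 had 451, 299, 386, 432 and 463 CPM in GFAP replicates 1 to 5 and 406, 404, 319, 364 and 411 CPM in NG2 replicates 1 to 5. GFAP replicate 2 was the lowest of the 10, and the groups overlapped over most of their range. Its log2 fold change was -0.09 (SE 0.12, 95% interval -0.35 to 0.17, edgeR adjusted p = 0.791). Leaving out GFAP replicate 2 gave -0.18, and leaving out NG2 replicate 3 gave -0.03. Epha5 and Epha7, which like Epha3 bind class A ephrins, had fold changes of -0.11 (SE 0.14) and -0.15 (SE 0.12). The 4 tested class A receptors thus all had negative estimates, none of which passed.

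The other 5 class A receptors were rare and did not reach the expression filter. Epha1 had 29 reads in the NG2 and 57 in the GFAP group, Epha8 had 46 and 44, and Epha10 had 40 and 27. Epha2 and Epha6 were rare in all libraries but 1. In NG2 replicate 5 Epha2 stood at 6.42 CPM (114 reads), against 0 to 0.377 CPM in the other 9 libraries. Epha6 stood there at 11.6 CPM (206 reads), against 0.139 to 1.32 CPM elsewhere. This is the library with the fewest detected genes, and the part of that in these values was not tested.

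All 5 class B Eph receptors were tested, and their estimates fell on both sides of 0. Ephb6, a receptor whose kinase domain lacks activity, had the highest level of the class. It had 69.2, 52.3, 68.8, 59.0 and 75.4 CPM in GFAP replicates 1 to 5 and 57.0, 93.4, 69.0, 70.3 and 97.4 CPM in NG2 replicates 1 to 5. NG2 replicates 2 and 5 lay above every other library, and the remaining NG2 libraries lay within the GFAP range. Its log2 fold change was 0.25 (SE 0.15, 95% interval -0.06 to 0.57, edgeR adjusted p = 0.5003). Ephb1 had 0.33 (SE 0.17), Ephb2 -0.25 (SE 0.13), Ephb3 -0.05 (SE 0.19) and Ephb4 -0.19 (SE 0.23). Ephb4, known as a receptor of venous endothelium, had 26.7 CPM in NG2 replicate 5 and at 10.7 to 14.05 CPM in the other 4 NG2 libraries. The summed level of 12 endothelial markers was 8.85 to 35.3 CPM over the NG2 and 9.40 to 40.2 CPM over the GFAP libraries. NG2 replicate 5 itself had the lowest sum of all libraries, 8.85 CPM, and a link to Ephb4 was not tested. Of these markers 6, Pecam1, Cdh5, Tek, Cldn5, Ly6c1 and Tie1, had 0 reads in at least 1 library.

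Of the class A ephrins, Efna3 had the lowest p of all members. Its CPM were 15.6, 12.7, 16.8, 16.3 and 14.7 in GFAP replicates 1 to 5 and 16.3, 30.2, 24.1, 20.3 and 22.4 in NG2 replicates 1 to 5. NG2 replicates 2 to 5 lay above every GFAP library, and NG2 replicate 1 lay below GFAP replicate 3. The means of 22.7 ± 5.10 CPM in NG2 and 15.2 ± 1.63 CPM in GFAP (SD, n = 5) gave a log2 fold change of 0.57 (SE 0.16, 95% interval 0.22 to 0.92). The edgeR adjusted p was 0.184, so Efna3 did not pass. NG2 replicate 2 was the highest library, and without it the value was 0.45 (edgeR adjusted p = 0.362). With DESeq2 the log2 fold change was 0.58 with an adjusted p of 0.0340, and in the authors' deposited table it is 0.59 with an adjusted p of 0.0318. Over all 22 alternatives the log2 fold change ranged from 0.39 to 0.67 and the adjusted p from 0.0340 to 0.365.

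Efna3 lies between 2 other class A ephrins on the minus strand of chromosome 3, with Efna1 at 89271733 to 89281142, Efna3 at 89313899 to 89322965 and Efna4 at 89333390 to 89338028 (GRCm38). Gaps of 32.8 kb and 10.4 kb separate them, with 0 protein-coding genes between. The neighbours had negative estimates, and whether they differ from Efna3 was not tested. The 95% interval of Efna1 ran from -1.40 to 0.61 and held the Efna3 estimate. The log2 fold changes were -0.06 for Efna4 (SE 0.14) and -0.40 for Efna1 (SE 0.47), which was -0.04 without NG2 replicate 5, its lowest library, and GFAP replicate 2. Per length, Efna4 stood at 17.6 FPKM over the 10 libraries, Efna3 at 7.71 and Efna1 at 2.17 FPKM. Efna3 overlaps Gm15998 and Efna4 overlaps 4731419I09Rik, both on the opposite strand, and their reads cannot be told apart from those genes' without strand.

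The start regions of these 3 neighbours and of Epha4 are shown. Efna3 had the lowest edgeR p of all members, Epha4 the lowest of the receptors, and Efna1 and Efna4 flank Efna3. Efnb3, whose edgeR p was lower than that of Epha4, is not shown because it had no matching start window. Each region shown runs from 250 bases before to 50 after a RefSeq RNA start (RefSeq, GRCm38.p6), 5′ to 3′ on the gene's strand. The windows are Efna1 chr3:89280902-89281201, Efna3 chr3:89322890-89323189, Efna4 chr3:89337979-89338278 and Epha4 chr1:77515039-77515338, all on the minus strand. Efna1 and Efna3 each have 2 start windows in the table, and the one nearest the deposited gene start is given. Capitals mark the motifs found.
Efna1: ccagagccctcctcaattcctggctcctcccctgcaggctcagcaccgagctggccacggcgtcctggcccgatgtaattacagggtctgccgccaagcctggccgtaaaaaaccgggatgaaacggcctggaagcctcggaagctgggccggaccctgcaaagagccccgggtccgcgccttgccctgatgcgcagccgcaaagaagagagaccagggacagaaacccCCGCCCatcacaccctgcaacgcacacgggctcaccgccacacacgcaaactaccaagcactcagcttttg
Efna3: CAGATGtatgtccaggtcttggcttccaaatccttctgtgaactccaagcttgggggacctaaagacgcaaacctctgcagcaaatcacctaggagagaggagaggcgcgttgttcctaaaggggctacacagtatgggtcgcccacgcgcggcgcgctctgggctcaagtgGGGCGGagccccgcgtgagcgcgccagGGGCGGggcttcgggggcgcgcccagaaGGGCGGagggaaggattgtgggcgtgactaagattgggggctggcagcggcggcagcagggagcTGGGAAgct
Efna4: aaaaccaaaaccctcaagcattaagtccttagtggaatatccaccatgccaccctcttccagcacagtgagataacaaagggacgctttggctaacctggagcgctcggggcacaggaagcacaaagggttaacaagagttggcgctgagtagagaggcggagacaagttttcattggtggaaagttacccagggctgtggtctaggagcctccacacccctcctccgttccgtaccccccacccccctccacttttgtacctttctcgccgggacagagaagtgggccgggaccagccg
Epha4: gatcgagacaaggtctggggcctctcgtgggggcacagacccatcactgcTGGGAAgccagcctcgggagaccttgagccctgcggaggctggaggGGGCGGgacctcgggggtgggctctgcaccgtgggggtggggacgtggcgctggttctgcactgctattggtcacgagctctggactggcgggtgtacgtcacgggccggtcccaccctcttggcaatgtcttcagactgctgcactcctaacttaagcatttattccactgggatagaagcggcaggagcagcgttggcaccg
The letters searched, on both strands, were the E-boxes CAGATG and CAGCTG, which proneural factors can bind, the RBPJ core TGGGAA, the GC box GGGCGG and the TATA box TATAAA. The Efna3 window held 3 GC boxes, 1 CAGATG and 1 TGGGAA, the Epha4 window 1 GC box and 1 TGGGAA, the Efna1 window 1 GC box and the Efna4 window 0 of the 5. No hits overlapped. Of all 32851 windows 35.7% held a GC box, 17.2% CAGATG, 16.3% CAGCTG, 25.6% TGGGAA and 13.6% TATAAA. The windows of Efna1, Efna3, Efna4 and Epha4 had 20, 22, 11 and 17 CG pairs, where the median window had 7. These matches describe letters only.

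Efna2 was the most abundant class A ephrin, with 59.98% ± 3.90 of the class sum in NG2 and 59.7% ± 1.47 in GFAP libraries (SD, n = 5). It had 90.3, 76.7, 92.1, 89.3 and 92.7 CPM in GFAP replicates 1 to 5 and 89.1, 103, 94.2, 103 and 79.1 CPM in NG2 replicates 1 to 5. The lowest values of each group came from GFAP replicate 2 and NG2 replicate 5, and the groups overlapped. The log2 fold change was 0.09 (SE 0.10, 95% interval -0.12 to 0.30, edgeR adjusted p = 0.754). Efna5, the ephrin known from topographic maps of the thalamus and tectum, was low at 0.842 FPKM and had a fold change of -0.69 (SE 0.35). Efna1 was lowest in a single library, with 0.338 CPM in NG2 replicate 5 against 2.59 to 5.74 CPM in the other 9.

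The class B ephrins included Efnb1, the member with the highest level. It had 305, 340, 294, 279 and 275 CPM in GFAP replicates 1 to 5 and 271, 298, 264, 284 and 301 CPM in NG2 replicates 1 to 5. GFAP replicate 2 was the highest, and all other libraries lay within a narrow range shared by both groups. With a log2 fold change of -0.07 (SE 0.09, 95% interval -0.26 to 0.11, edgeR adjusted p = 0.763) it had the smallest standard error of the 33 members. It made up 67.4% ± 2.78 of the class sum in NG2 and 72.0% ± 3.23 in GFAP libraries (SD, n = 5).

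Efnb3 was the second member with an unadjusted p under 0.05 and a higher estimate in NG2. It lies on chromosome 11 at 69554092 to 69560205 (minus strand, GRCm38) and overlaps no other gene of the table. Its CPM were 25.3, 22.4, 22.5, 26.7 and 20.8 in GFAP replicates 1 to 5 and 23.8, 44.7, 30.6, 26.0 and 40.2 in NG2 replicates 1 to 5. NG2 replicates 2, 3 and 5 lay above every GFAP library, while NG2 replicates 1 and 4 lay within the GFAP range. The means were 33.1 ± 9.04 CPM in NG2 and 23.5 ± 2.38 CPM in GFAP (SD, n = 5), a log2 fold change of 0.49 (SE 0.17, 95% interval 0.13 to 0.85, edgeR adjusted p = 0.272). NG2 replicate 2 was again the highest, and without it the value was 0.36 (edgeR adjusted p = 0.459). Efnb2, a ligand of Ephb4 among others, had 0.19 (SE 0.11).

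**Figure D3:**
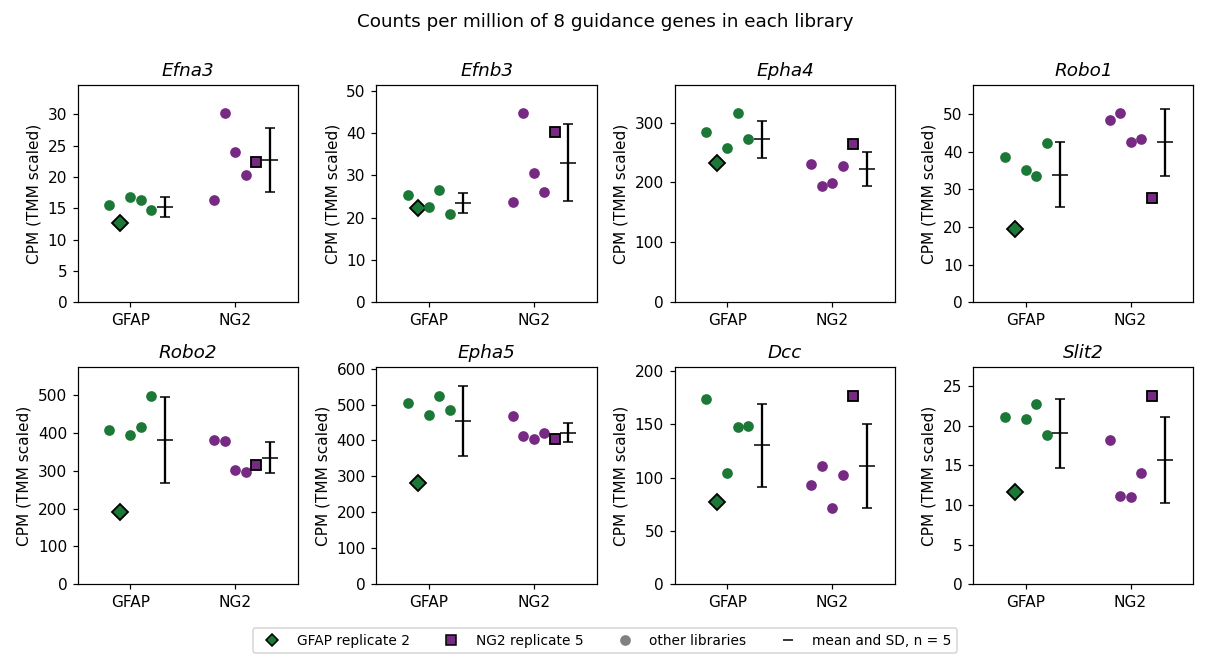
CPM (y axis, from 0) of Efna3, Efnb3, Epha4, Robo1, Robo2, Epha5, Dcc and Slit2 in each GFAP and NG2 library, with the mean and SD (n = 5) beside each group. GFAP replicate 2 (diamond) is the lowest of all 10 libraries for Efna3, Robo1, Robo2 and Epha5, and NG2 replicate 5 (square) is the highest for Dcc and Slit2.

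Of the Slit ligands, Slit1 held 83.7% ± 3.73 of the class sum in NG2 and 75.8% ± 5.64 in GFAP libraries (SD, n = 5). It had 28.5, 22.0, 18.4, 25.5 and 21.0 CPM in GFAP replicates 1 to 5 and 24.5, 23.7, 17.9, 28.3 and 45.7 CPM in NG2 replicates 1 to 5. NG2 replicate 5 alone lay above the GFAP range. The log2 fold change was 0.28 (SE 0.21, 95% interval -0.17 to 0.73, edgeR adjusted p = 0.622), and without NG2 replicate 5 it was 0.04. Slit2 and Slit3 were low, at 0.675 and 0.401 FPKM, with fold changes of -0.28 (SE 0.23) and -0.73 (SE 0.47). Slit2 overlaps Mir218-1 and Slit3 overlaps Mir218-2, on the same strand, and both overlap further transcripts.

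Among the Robo receptors, Robo2 had the highest level, with 407, 191, 394, 414 and 498 CPM in GFAP replicates 1 to 5 and 382, 378, 301, 298 and 315 CPM in NG2 replicates 1 to 5. GFAP replicate 2 was the lowest of the 10, and the other 4 GFAP libraries lay above every NG2 library. The log2 fold change was -0.19 (SE 0.19, 95% interval -0.59 to 0.22, edgeR adjusted p = 0.721) and -0.35 without GFAP replicate 2 (edgeR adjusted p = 0.191). Robo1, which lies next to Robo2 on chromosome 16 with 0 protein-coding genes between them, had an estimate of the other sign, at 0.33 (SE 0.20). Its CPM were 38.7, 19.6, 35.2, 33.6 and 42.3 in GFAP replicates 1 to 5 and 48.5, 50.2, 42.6, 43.3 and 27.8 in NG2 replicates 1 to 5. The 4 NG2 libraries other than replicate 5 lay above every GFAP library.

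Robo3 differs from the other Robos in Slit binding and is known from midline crossing. It had 1.16 to 8.79 CPM over the NG2 and 3.50 to 12.4 CPM over the GFAP libraries. Its fold change of -0.90 (SE 0.47) was the most negative of the 33 members, with a 95% interval of -1.91 to 0.10. Robo4, known from endothelium, lies 553 bp from Robo3 on the opposite strand and did not reach the filter. It had 26 reads in the NG2 and 55 in the GFAP group. NG2 replicates 3 and 5 had 0 reads for it, which allows up to 0.193 and 0.171 CPM. These floors are 3 reads over the library total, without TMM scaling, and cover counting error only.

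Ntn4, a netrin of basement membranes, made up 96.1% ± 2.40 of the netrin sum in NG2 and 95.9% ± 2.61 in GFAP libraries (SD, n = 5). It had 30.1, 44.3, 23.0, 27.6 and 37.7 CPM in GFAP replicates 1 to 5 and 24.1, 27.8, 19.4, 28.6 and 26.3 CPM in NG2 replicates 1 to 5. GFAP replicates 1, 2 and 5 lay above every NG2 library and the other 2 lay among them. The log2 fold change was -0.37 (SE 0.17, 95% interval -0.74 to 0.00, edgeR adjusted p = 0.392). Ntn1, the classic ligand of Dcc, stood at 0.288 FPKM, with 135 reads in the NG2 and 153 in the GFAP group and a fold change of -0.25 (SE 0.52). Ntn5 had 4 reads in 1 NG2 library and 5 reads in 1 GFAP library. Netrin-Gs are held in the membrane by a lipid anchor and do not bind Dcc. Ntng2 was the higher of them, with 4.45, 3.27, 4.93, 3.36 and 4.63 CPM in GFAP replicates 1 to 5 and 3.34, 7.16, 5.56, 3.76 and 2.25 CPM in NG2 replicates 1 to 5. The NG2 values spread on both sides of the GFAP values, with a fold change of 0.10 (SE 0.31, edgeR adjusted p = 0.932). Ntng1 had -0.41 (SE 0.42), with its highest value in GFAP replicate 2 (5.27 CPM) and its lowest in NG2 replicate 5 (0.733 CPM), and 0.01 without both.

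Of the netrin receptors, Neo1, which also binds repulsive guidance molecules, had 152, 98.7, 135, 141 and 141 CPM in GFAP replicates 1 to 5 and 131, 151, 127, 129 and 138 CPM in NG2 replicates 1 to 5. GFAP replicate 2 was the lowest, and the other 9 libraries lay between 127 and 152 CPM. The log2 fold change was 0.02 (SE 0.11, 95% interval -0.22 to 0.26, edgeR adjusted p = 0.967), and its sign turned under 5 of 22 alternatives. Dcc, which mediates attraction to netrin, varied more, with 174, 77.5, 105, 148 and 149 CPM in GFAP replicates 1 to 5 and 93.2, 111, 72.1, 103 and 177 CPM in NG2 replicates 1 to 5. Among the GFAP libraries replicate 2 was the lowest, and among the NG2 libraries replicate 5 was the highest. Its fold change was -0.23 (SE 0.23, edgeR adjusted p = 0.721).

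Unc5d led the Unc5 receptors, with 79.0, 34.2, 76.0, 90.2 and 97.6 CPM in GFAP replicates 1 to 5 and 88.1, 62.3, 72.7, 66.7 and 82.6 CPM in NG2 replicates 1 to 5. GFAP replicate 2 lay far below the other 9, which overlapped. The log2 fold change was -0.02 (SE 0.21, 95% interval -0.47 to 0.43, edgeR adjusted p = 0.984), and its sign turned under 9 of 22 alternatives. Svet1, a transcript known as a marker of the subventricular zone, overlaps Unc5d on the same strand, so reads of the 2 cannot be told apart by position alone. Unc5a had a fold change of 0.37 (SE 0.18, edgeR adjusted p = 0.406), and its CPM were 18.7 to 32.1 in GFAP and 22.6 to 40.4 in NG2 libraries. Unc5b and Unc5c were low, at 0.308 and 0.125 FPKM, with fold changes of 0.32 (SE 0.41) and -0.67 (SE 0.53). NG2 replicate 5 was the highest library for Unc5b, at 4.001 CPM, and without it and GFAP replicate 2 the sign turned, to -0.08.

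Much of the variation in these genes lay between libraries of 1 group. Over the 33 tested members GFAP replicate 2 was the lowest of the 10 libraries for 12, or 36.4%, against 13.2% of all tested genes. These were Epha3, Epha5, Ephb6, Efna2, Efna3, Efna4, Efnb2, Robo1, Robo2, Neo1, Unc5a and Unc5d. It was the highest for 5 (15.2%, near the 14.4% of all genes), Ephb3, Efnb1, Robo3, Ntn4 and Ntng1. NG2 replicate 3 was the lowest for 9 members (27.3%, against 11.3% of all genes) and the highest for 0 (against 15.2% of all genes). NG2 replicate 5 was the highest for 7 and the lowest for 4, where it held 19.8% of the highest and 27.4% of the lowest values over all genes. NG2 replicate 2 was the highest for 6 (18.2%, against 13.3% of all genes), Efna3, Efnb2, Efnb3, Robo1, Ntng2 and Unc5a. It was the lowest for 4 (12.1%, near the 12.8% of all genes), Epha4, Ephb2, Efna5 and Slit3. The sum of radial glia markers was high and that of neuron markers low in GFAP replicate 2, the radial glia sum was the lowest in NG2 replicate 2, and the part of this in the members' values was not tested.

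**Figure D4:**
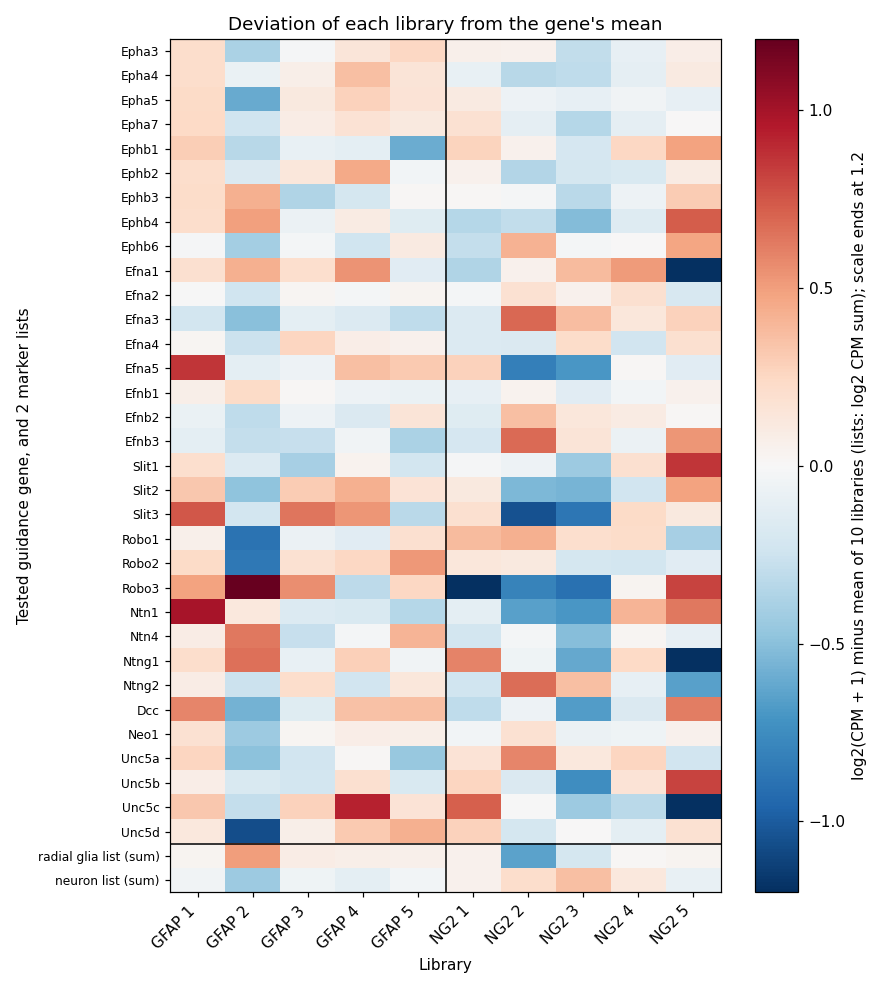
Deviation of each library (columns) from the mean of the 10 libraries for the 33 tested guidance genes and, below the line, the summed radial glia and neuron markers (rows), in log2 units by colour. GFAP 2 is the lowest library for 12 members, among them Unc5d, Robo1, Robo2 and Epha5, and high for Robo3, Ntn4 and the radial glia sum.

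Leaving out GFAP replicate 2 and NG2 replicate 5 moved many members, in a choice made after the data were seen. NG2 replicate 2 also stood apart, in its radial glia sum, but was kept, and no fit left it out together with these 2. It was the lowest library for Epha4 and the highest for Efna3 and Efnb3. Among the remaining 8 libraries, 16 of the 33 members had an unadjusted edgeR p under 0.05, 4 higher and 12 lower in NG2, where 21.3% of all tested genes had one (9.63% higher and 11.7% lower). Past the adjusted threshold was 1 member, Epha4 (log2 fold change -0.41, edgeR adjusted p = 0.0468), where 1.61% of genes were. The groups stood without overlap in 6 members, Robo1 on the higher side and Epha4, Epha5, Ephb4, Robo2 and Slit2 on the lower, against 12.2% of all genes. Dcc had a log2 fold change of -0.60 (edgeR adjusted p = 0.0529) and Slit2 of -0.62 (edgeR adjusted p = 0.0642) in this smaller set, beside -0.23 and -0.28 over 10 libraries. For Epha4, Dcc and Slit2 the libraries left out held the lowest GFAP value (232, 77.5 and 11.7 CPM). They also held the highest NG2 value (264, 177 and 23.8 CPM), so leaving them out lowers these estimates by construction. Robo1 had 0.30 (SE 0.11, edgeR adjusted p = 0.127) and Robo2 -0.33 (SE 0.11, edgeR adjusted p = 0.112). Other members with values over 1.5 times apart included Epha3 at -0.21, Epha5 at -0.22, Epha7 at -0.24, Ephb4 at -0.38, Efna4 at -0.18, Ephb1 at 0.20, Ephb6 at 0.09, Slit1 at 0.01, Ntn1 at -0.61 and Unc5d at -0.24. The signs of Neo1, Ntng1 and Unc5b turned. In these 8 libraries the median over members was -0.18, and 22 of the 33 were negative.

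Other genes of the pathways also gave 0 calls by edgeR, where 0.148% of all tested genes passed. Of these 68 partners and effectors, Chn1 and Lrrc4 stood without overlap between the groups, both higher in NG2, against 3.28% of all tested genes. Of 24 partners and effectors of Eph receptors and ephrins, 3 had an unadjusted edgeR p under 0.05 with higher and 2 with lower estimates in NG2 (median -0.08). Of all tested genes, 6.45% had such a p with a higher and 6.33% with a lower estimate. For Chn1, a Rac regulator that acts behind Epha4, the estimate was 0.35 (SE 0.10, edgeR adjusted p = 0.200), and for the phosphatase Ptpro, which acts on Eph receptors, it was 0.42 (SE 0.16, edgeR adjusted p = 0.298). Of 18 Slit and Robo partners 4 were on the higher and 2 on the lower side (median 0.01). Nell2, a secreted ligand of Robo3, averaged 163 ± 20.7 CPM over NG2 libraries and 117 ± 17.2 CPM over GFAP libraries (SD, n = 5), a fold change of 0.48 (SE 0.12, edgeR adjusted p = 0.132), and Cap2, an actin regulator, had 0.76 (SE 0.21, edgeR adjusted p = 0.174). Of 26 netrin, Dcc and Unc5 partners 4 were higher and 2 lower (median 0.11). Lrrc4, which encodes a ligand of netrin-G2, averaged 18.9 ± 6.38 CPM over NG2 libraries and 9.64 ± 1.66 CPM over GFAP libraries (log2 fold change 0.97, SE 0.21, edgeR adjusted p = 0.122). Flrt2, a membrane ligand of Unc5 receptors, had 0.48 (SE 0.12, edgeR adjusted p = 0.151). By DESeq2, which called 2.99% of all genes, 6 of these partners passed, all higher in NG2 (Chn1, Nell2, Flrt2, Flrt3, Cap2 and Lrrc4). By limma voom with sample weights, which called 1441 of 16187 genes, 9 of the 68 partners passed, 4 higher and 5 lower. Lrrc4 and Cap2 were not among them.

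Marker lists of the cell types that the sort could hold were summed per library. By summed CPM, 13 intermediate progenitor markers gave 3321 to 3739 in NG2 and 3837 to 4264 in GFAP libraries, without overlap, and 8 Cajal-Retzius markers gave 12.03 to 38.5 and 25.7 to 62.7. Interneuron markers (10) gave 82.5 to 269 and 136 to 257, 8 oligodendrocyte lineage markers 17.7 to 37.1 and 26.2 to 30.4, and 8 mural markers 14.1 to 35.1 and 19.4 to 38.0. Meningeal fibroblast markers (10) gave 3.89 to 17.2 and 11.1 to 23.0, 10 microglia markers 31.0 to 400 and 47.3 to 179, and 8 erythroid markers 263 to 509 and 248 to 459. Of all markers on these lists 0 passed the edgeR threshold. Fold changes were negative for 18 of 20 radial glia and 11 of 13 intermediate progenitor markers. They were also negative for 7 of 7 tested Cajal-Retzius and 6 of 6 tested meningeal fibroblast markers. Positive fold changes were found for 17 of 17 neuron and 10 of 10 microglia markers, and the remaining lists held both signs. The part of these markers in the guidance genes' values was not tested.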

How the data were processed

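RNA was measured in 10 libraries, 5 per sort. Per the labels' protocols, SMARTer amplification came before poly(A) selection and paired-end sequencing. Without molecular identifiers 1 molecule can give many reads, so intervals cover the spread between libraries and floors counting error only. The deposited counts are whole reads per gene, made with HISAT2 and featureCounts 1.5.0-p3 on GRCm38.p6, per the submitters' processing notes. Whether strand was used in counting, and which annotation, is not given in the sources used here, and 25 of the 40 members overlap another gene. The deposited FPKM values were used to compare genes per length. Per the file headers, the authors' table also holds a mean signal per group (not used here), log2 fold changes, p-values and adjusted p-values; the tool is not given in the sources used here.

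Counts were tested with edgeR 4.0.16 (R 4.3.3, quasi-likelihood, TMM scaling, default filter by group, Benjamini-Hochberg). CPM are TMM scaled, except the floors for 0 reads, which use the library total alone. Alternatives used DESeq2 1.42.0 and limma 3.58.1, other scalings and filters, log2 FPKM with pseudocounts of 1 and 0.1, a replicate block and leaving out libraries. The edgeR, DESeq2 and limma steps were tested on simulated data. The members and gene lists were chosen with earlier results of these data known. Named in full are members past the threshold, at unadjusted p under 0.05 or without overlap, and the highest of each role by FPKM. Dcc and Robo1 were given per library after their values were seen. Partners named are the 2 with the smallest p of each list. RefSeq start windows matched 35 of the 40 members.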

Additional observations from a re-analysis of the deposited data

Results flagged for a closer look

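Across the members, 10 values stood far from the other 4 libraries of their group, by the gap to the nearest library as a share of the group's range. The rule marks about 5% of groups of normally distributed values, and 80 groups were examined. The share marked over all genes was not computed. Of the 10, 6 came from NG2 replicate 5 and GFAP replicate 2. In NG2 replicate 5, Epha2 had 6.42 CPM where the next NG2 library had 0.207, Epha6 had 11.6 CPM where the next had 1.32, and Ephb4 had 26.7 CPM where the next had 14.05. In GFAP replicate 2, Epha5 was low at 283 CPM, with the next library at 470, Efna2 was low at 76.7 CPM, with the next at 89.3, and Epha1 was high at 1.38 CPM (22 reads), with the next at 0.683. Epha5 was also high in NG2 replicate 1, at 467 CPM against 404 to 420 in the other NG2 libraries. Ntn1 was high in GFAP replicate 1, at 4.27 CPM (70 reads) against 1.09 to 1.88. Ntn5 had 0.251 CPM (4 reads) in NG2 replicate 4 and 0.379 CPM (5 reads) in GFAP replicate 3 and 0 reads in all the others. A group with reads in a single library is always marked by this rule. Epha1, Epha2, Epha6 and Ntn5 did not reach the expression filter.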

How the results depend on the processing

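The count of 0 guidance genes past the threshold held with edgeR under each scaling, each filter, protein-coding genes alone and each library left out, and with limma on log2 FPKM with either pseudocount. It was 1 by DESeq2 (Efna3), 5 by limma voom with sample weights (Efna3 higher, Epha4, Ephb2, Robo2 and Slit2 lower) and 1 (Epha4) without GFAP replicate 2 and NG2 replicate 5. Members at unadjusted p under 0.05 numbered 3, against 9 without an expression filter (10.1% of all genes), 5 by DESeq2 (14% of genes), 17 by voom (27.7% of genes), 16 in those 8 libraries (21.3% of genes) and 3 to 11 with 1 library left out. The 11 came without NG2 replicate 5, with 17.3% of all genes. Without NG2 replicate 2 the 3 were Efna3, Efnb3 and Epha6, not Epha4. Members without overlap numbered 0 to 2 with 1 library left out (3.93% to 6.87% of genes) and 6 in the 8 libraries (12.2% of genes). Partners past the threshold numbered 0, against 1 without a filter (Lrrc4), 6 by DESeq2, 9 by voom (4 higher, 5 lower) and 1 in the 8 libraries. All genes past the threshold numbered 24, against 95 without a filter, 371 by DESeq2, 1441 by voom, 12 on log2 FPKM with either pseudocount, 39 among protein-coding genes, 263 in the 8 libraries and 3 to 117 with 1 library left out. Each fit with fewer libraries also has fewer samples, and the cause of the other changes was not tested. The median over members kept its sign under every setting, from -0.18 to -0.04, but all settings drew on the same libraries. Ntng2 was not tested under the filter of 5 CPM in 5 libraries.

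Libraries of the 2 groups share replicate numbers. Deviations of same-numbered libraries correlated at -0.09 to 0.08, and 0 of 5 libraries correlated best with their own number. These correlations cannot show whether same-numbered libraries share an animal or litter, which the labels do not give. With the replicate block 0 members and 1 gene in all passed, and 5 members had an unadjusted p under 0.05, with 11.4% of genes.

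Of the 13 members given in full by the naming rule, signs turned for 3. In the 8 libraries they also turned for Ntng1 (0.0083) and Unc5b (-0.080). Neo1 was -0.029 with scaling by library size, -0.11 by voom, -0.081 in the 8 libraries and -0.072 to 0.069 with 1 library left out. Ntng2 was -0.092 by voom and -0.14 to 0.27 with 1 left out. Unc5d was 0.052 and 0.068 on log2 FPKM with pseudocounts of 1 and 0.1, 0.050 with the replicate block and -0.20 to 0.10 with 1 left out.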
